A study of Mus musculus with 43 samples.

Results

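The genes encoding glutamate and GABA receptor subunits were taken as the 34 entries, of 42349 in the expression table, that name a single gene whose symbol begins with Gria, Grin, Grik, Grm, Gabra, Gabrb, Gabrg or Gabbr followed by a subunit number, together with Gabrd. They comprised 1 AMPA subunit (Gria1), 7 NMDA subunits, 4 kainate subunits, 7 metabotropic glutamate receptors, 6 GABA-A alpha, 3 GABA-A beta and 4 GABA-A gamma or delta subunits, and the 2 subunits of the GABA-B receptor. A further 5 subunits (Gria2, Gria3, Gria4, Grik4 and Grm8) share their entry with a small RNA gene inside the same locus, so they were not members and are described once, apart.

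RNA was sequenced from brain, liver, skeletal muscle and white adipose tissue (WAT) of female mice at 15 months of age. Wild-type mice (WT; Irs1+/+) and global insulin receptor substrate 1 knockout mice (KO; Irs1-/-) were fed ad libitum (AL) or held on dietary restriction (DR), introduced at 10 weeks of age in steps and kept at 30% for 12 months, with food given daily in the late afternoon. The 4 groups are called WTAL, WTDR, KOAL and KODR, and brain was represented by 2 WTAL libraries and 3 libraries of each other group, 11 of the 43 in all. The table holds a single pooled FPKM per gene and group with its 95% confidence interval, both estimated by the authors, so values per mouse and depth per library are unknown.

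Glutamate is the main excitatory transmitter of the brain and GABA the main inhibitory one. AMPA, NMDA and kainate receptors are glutamate-gated cation channels and GABA-A receptors are chloride channels, each assembled from several subunits whose choice sets kinetics, pharmacology and site on the neuron. Metabotropic glutamate receptors and the GABA-B receptor act through G proteins, many of them at presynaptic terminals. Several subunits are known for their regional expression, such as the alpha6 subunit in cerebellar granule cells, so a measurement in brain RNA also reads which regions and cells the RNA came from.

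In brain the receptor subunits were broadly expressed, and the leading subunits of the NMDA, kainate and GABA-B classes were the same in the 4 groups. Among the metabotropic glutamate receptors, Grm5 lay above Grm2 in WTAL and WTDR mice and below it in KOAL and KODR mice. An FPKM (fragments scaled to transcript length and mapped fragments) of at least 1 was reached by 31 of 34 members in WTAL, WTDR and KOAL mice and by 33 in KODR mice. The summed FPKM of the members was 1002 in WTAL, 1048 in WTDR, 1414 in KOAL and 1197 in KODR mice. Among the 33 members detected in brain, KOAL mice had the highest value for 13, WTDR for 10, KODR for 8 and WTAL for 2, whilst WTAL mice had the lowest value for 16. These orders were not tested as such, and the comparisons of single genes are given further on. The plot of brain values by group shows 30 members with their intervals.

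**Figure D1:**
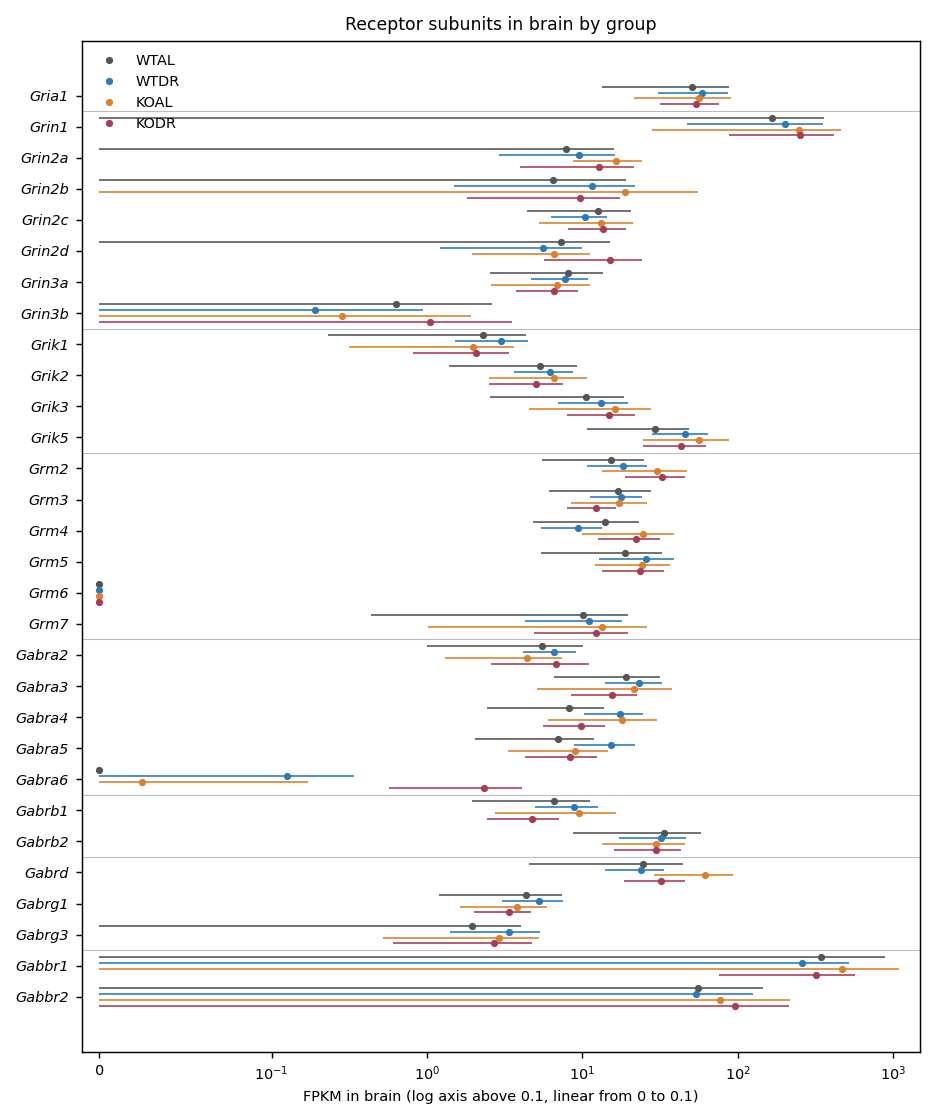
FPKM of 30 receptor subunits in brain (points) with the authors' 95% intervals (lines) in WTAL, WTDR, KOAL and KODR mice, on an axis that is logarithmic above 0.1 and linear below. Gabbr1 and Grin1 lie highest, Grm6 is at 0 in all 4 groups, and the intervals of KODR mice stand clear of those of WTDR and KOAL mice for Gabra6 only.

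Of the AMPA receptors, which carry fast excitatory transmission, Gria1 (chromosome 11, 57011387 to 57330244, GRCm38) was the one subunit with an entry of its own. Its FPKM was 50.6 (95% interval 13.3 to 87.9) in WTAL, 58.8 (30.7 to 86.8) in WTDR, 56.2 (21.7 to 90.7) in KOAL and 53.9 (31.8 to 76.0) in KODR mice. The highest of these was 1.16 times the lowest, among the narrowest ranges of any member, and the intervals overlapped throughout. The joined entries holding Gria2, Gria3 and Gria4 had lower values. Gria2, the subunit that makes the channel impermeable to calcium, was listed at 30.5, 53.0, 54.5 and 45.9 in WTAL, WTDR, KOAL and KODR mice. The entry of Gria3 lay between 18.7 and 29.1 and that of Gria4 between 11.4 and 17.7. Those of Grik4 (4.59 to 6.01) and Grm8 (4.14 to 5.95) were lower still, and none of the 5 joined entries passed the test described further on in any comparison.

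NMDA receptors, calcium-permeable channels that need glutamate and a coagonist, contain the obligatory subunit encoded by Grin1 (chromosome 2, 25291181 to 25319187, minus strand). Grin1 was the second most abundant member, with an FPKM of 165 (0 to 358) in WTAL, 202 (47.3 to 356) in WTDR, 246 (28.1 to 465) in KOAL and 254 (87.4 to 420) in KODR mice. It made up 79.4% (SD 10.2 percentage points, from the authors' intervals) of the summed NMDA FPKM in WTAL mice and 81.7%, 79.8% and 81.2% in WTDR, KOAL and KODR mice. The share of Grin1 therefore moved by less than its SD between groups. An antisense gene, Grin1os, lies on the plus strand inside this locus and was listed between 0 and 0.0144, and whether reads were counted by strand is not given in the sources used here.

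The Grin2 genes encode the glutamate-binding subunits. Grin2a and Grin2b, the main forebrain pair, were listed at 7.87 and 6.49 in WTAL, 9.53 and 11.6 in WTDR, 16.5 and 19 in KOAL, and 12.7 and 9.70 in KODR mice. The ratio of Grin2a to Grin2b thus ran from 0.820 to 1.31, with an SE on the log2 scale of 0.77 or more in every group. Grin2c, known from cerebellar granule cells, lay between 10.4 and 13.6. Grin2d, known from diencephalon, brainstem and interneurons, was at 7.34, 5.58 and 6.55 in WTAL, WTDR and KOAL mice and at 15.0 (5.65 to 24.4) in KODR mice. Of the glycine-binding Grin3 subunits, Grin3a stayed between 6.60 and 8.08, and Grin3b, known from motor neurons, did not exceed 1.05.

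Kainate receptors were dominated by Grik5 (chromosome 7, 25009849 to 25072346, minus strand), a high-affinity subunit that needs a partner from Grik1, Grik2 or Grik3 to form a channel. Its FPKM was 29.6 (10.7 to 48.4) in WTAL, 46.1 (28.2 to 64.0) in WTDR, 56.5 (24.5 to 88.5) in KOAL and 43.5 (24.4 to 62.5) in KODR mice. Grik5 accounted for 61.9%, 67.2%, 69.6% and 66.3% of the kainate total in the same order. Grik3 followed at 10.6 to 16.2, Grik2 at 5.02 to 6.57 and Grik1 at 1.97 to 3.00, and this order held in each of the 4 groups.

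The metabotropic glutamate receptors were more even. Grm5, a postsynaptic receptor coupled to phospholipase C, was at 18.9, 25.8, 24.3 and 23.5 in WTAL, WTDR, KOAL and KODR mice. Grm2 and Grm3, which inhibit adenylate cyclase, ran from 15.2 to 32.4 and from 12.3 to 17.6. Grm2, known from presynaptic terminals, was about as high in KOAL (30.1) as in KODR mice (32.4), whereas Grm3, which glia also express, was lowest in KODR mice. Grm4, a presynaptic receptor of cerebellar granule cells, was at 14.0, 9.39, 24.5 and 22.0, and Grm7, found at active zones, lay between 10.1 and 13.5. Grm6, the receptor of retinal bipolar cells, was listed at 0 in every brain group.

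Among the GABA-A alpha subunits, which help to form the GABA binding site, Gabra3 was listed at 15.6 to 23.3 and Gabra2 was lower, at 4.37 to 6.77. Gabra4, which joins the delta subunit in extrasynaptic receptors of forebrain and thalamus, was at 8.17 and 9.75 in WTAL and KODR mice and at 17.5 and 18.1 in WTDR and KOAL mice. Gabra5, known from the hippocampus, was at 15.3 in WTDR mice and between 6.94 and 8.98 elsewhere.

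Gabra6 (chromosome 11, 42306437 to 42321072, minus strand) was listed at 0 in WTAL, 0.126 (0 to 0.339) in WTDR and 0.0250 (0 to 0.172) in KOAL mice, and at 2.32 (0.568 to 4.08) in KODR mice. The KODR interval did not overlap that of any other group.

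The promoters of Grin1 and Gabra6 differ in CG dinucleotides, which cluster in CpG islands. For Grin1, near the top of the range in brain, and Gabra6, detected in KODR mice, the RefSeq window (GRCm38.p6) from 250 bases before to 50 after the annotated start is given with each CG in capitals. The Grin1 window is chr2:25319138-25319437 and the Gabra6 window chr11:42321023-42321322, both read on the minus strand.
Grin1: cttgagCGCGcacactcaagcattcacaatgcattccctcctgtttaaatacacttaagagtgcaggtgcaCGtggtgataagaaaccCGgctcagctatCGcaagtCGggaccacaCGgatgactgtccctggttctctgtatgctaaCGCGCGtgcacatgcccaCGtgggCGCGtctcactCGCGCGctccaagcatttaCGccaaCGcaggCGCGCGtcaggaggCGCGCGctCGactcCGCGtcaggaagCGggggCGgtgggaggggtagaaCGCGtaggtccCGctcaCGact
Gabra6: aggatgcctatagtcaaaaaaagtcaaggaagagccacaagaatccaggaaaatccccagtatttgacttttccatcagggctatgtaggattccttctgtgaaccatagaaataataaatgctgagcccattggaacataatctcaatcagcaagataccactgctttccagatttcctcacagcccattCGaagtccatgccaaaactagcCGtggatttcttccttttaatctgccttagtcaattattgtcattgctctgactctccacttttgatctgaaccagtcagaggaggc
The Grin1 window holds 33 CG dinucleotides and the Gabra6 window 2. RefSeq windows were matched for 22 of the 34 members, 27 windows in all, with a median of 12 CG dinucleotides (from 0 in both Gabra3 windows to 50 at Grik3) against 7 over all 32851 windows of the same length. At least 10 were held by 66.7% of the member windows and 43.5% of all windows. The count did not rise in step with the level in brain. Mean brain FPKM was 19.8 for Gabra3, 13.7 for Grik3 and 348 for Gabbr1, whose window holds 18. These counts describe the reference sequence, and methylation was not measured.

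In the GABA-A beta class, whose subunits line the GABA binding site together with an alpha subunit, Gabrb2 was the steadiest member, at 33.3 (8.65 to 58.0) in WTAL, 31.9 (17.2 to 46.7) in WTDR, 29.7 (13.4 to 46.0) in KOAL and 29.7 (16 to 43.4) in KODR mice, a range of 1.12-fold. Gabrb1 lay between 4.77 and 9.56.

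Gamma subunits place receptors at synapses and confer benzodiazepine sensitivity, while the delta subunit replaces gamma in receptors outside the synapse. Gabrd, which encodes the delta subunit, was at 24.6 (4.56 to 44.7) in WTAL, 23.8 (14.0 to 33.6) in WTDR, 61.3 (29.0 to 93.6) in KOAL and 32.2 (18.4 to 46.0) in KODR mice. KOAL mice thus had the highest value, and its interval overlapped that of each other group. Gabrg1 and Gabrg3 lay between 3.36 and 5.27 and between 1.95 and 3.37.

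The GABA-B receptor is an obligate pair of Gabbr1, which binds GABA, and Gabbr2, which couples to the G protein. Gabbr1 (chromosome 17, 37045966 to 37075067) had the highest FPKM of all members, at 346 (0 to 894) in WTAL, 258 (0 to 518) in WTDR, 467 (0 to 1091) in KOAL and 320 (75.4 to 565) in KODR mice. Gabbr2 was at 55.9, 54.0, 77.1 and 96.6, with a lower bound of 0 in each group. The value of Gabbr1 was from 3.31 to 6.20 times that of Gabbr2, with an SE of 1.04 to 1.63 on the log2 scale, so the GABA-B values carried the widest errors among the abundant members.

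The shares within the NMDA, kainate and GABA-B classes are drawn as stacked bars, and the leading subunit of each was the same in all 4 groups.

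**Figure D2:**
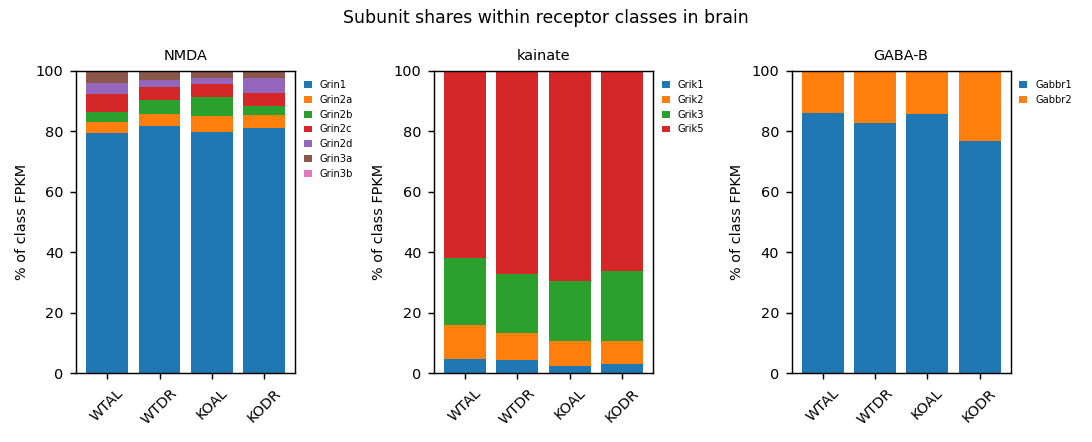
Percentage of the summed brain FPKM of the NMDA, kainate and GABA-B classes taken by each member (stacked bars, without error bars) in WTAL, WTDR, KOAL and KODR mice. Grin1 takes 79.4% to 81.7% of the NMDA class, Grik5 61.9% to 69.6% of the kainate class and Gabbr1 76.8% to 86.1% of the GABA-B class.

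Outside brain the receptor subunits were nearly all at or close to 0. For 31 of the 34 members the lowest of the 4 brain values lay above the highest of the 12 values in liver, skeletal muscle and WAT, and the exceptions were Grm6, Gabra6 and Grin3b. Among entries with an FPKM of at least 1 in any brain group, 25.9% of 16281 had this order, against 31 of 33 members. A stricter criterion, every brain interval above every other interval, was met by 20 members and by 5.42% of the same entries. The mean brain FPKM exceeded the highest mean of another tissue by a median of 166.5-fold over the 33 members (0.791-fold over all such entries), and by more than 10-fold in 30 of them. In the heat map of all 16 groups the members form a bright brain block with few values beside it.

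**Figure D3:**
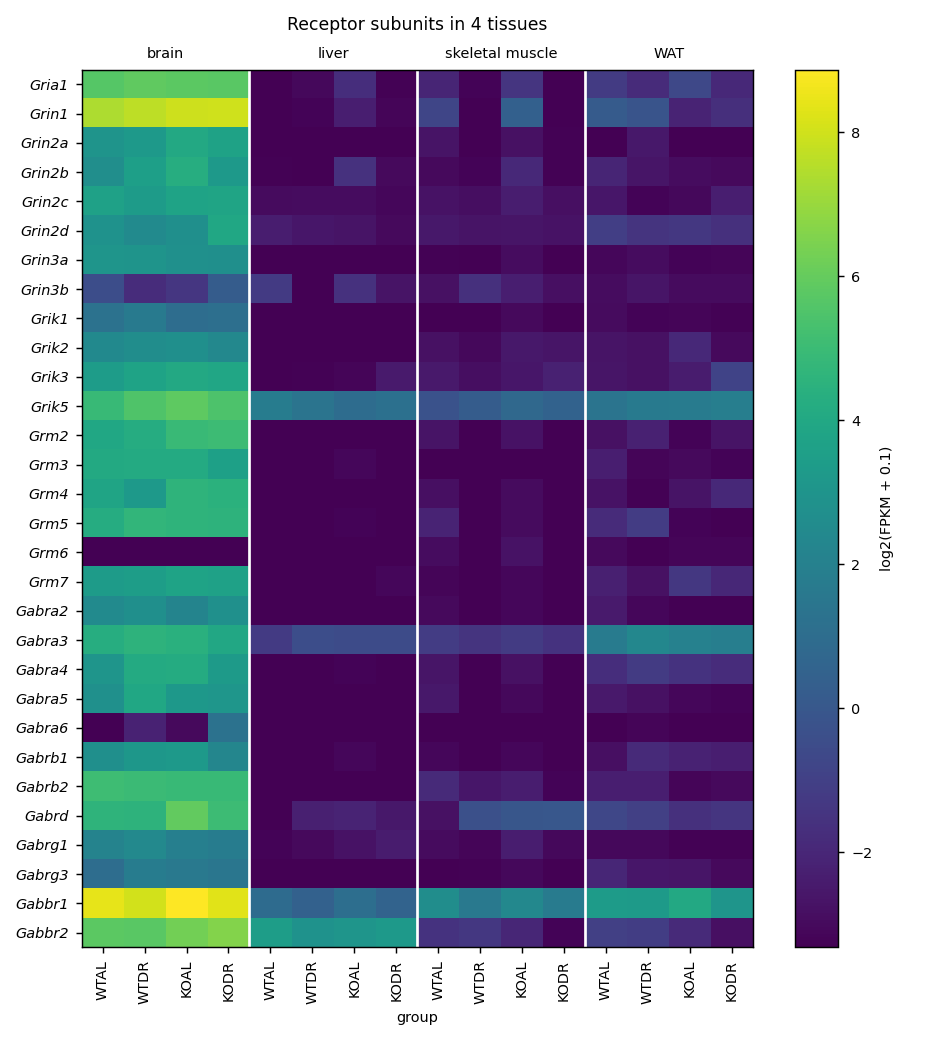
Heat map of log2(FPKM + 0.1) for 30 receptor subunits (rows) in the 16 groups (columns, ordered by tissue). Brain columns are bright for all members except Grm6, Gabra6 and Grin3b, and the brighter rows outside brain are Gabbr1, Gabbr2, Grik5 and Gabra3.

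Of the members seen outside brain, Gabbr1 had an FPKM of 8.16 to 16.1 in WAT, 2.92 to 6.28 in skeletal muscle and 1.29 to 2.01 in liver. Gabbr2 showed another pattern, with 7.27 to 11.1 in liver and no more than 0.393 in WAT and 0.300 in skeletal muscle. Its lower interval bound stayed above 0 in the 4 liver groups and was at 0 in the 8 groups of the other peripheral tissues. In liver Gabbr2 exceeded Gabbr1 by 4.03-fold to 6.67-fold, the reverse of brain, and the log2 ratio of Gabbr1 to Gabbr2 there ran from -2.01 to -2.74 with an SE of 0.96 to 1.20. Gabra3 reached 3.25 to 4.88 in WAT, and Grik5 was measured in each tissue, between 0.744 and 3.66. The smallest brain excess among members detected in brain was that of Grin3b (3.54-fold over liver), followed by Gabra3 (5.02-fold over WAT) and Gabbr2 (7.93-fold over liver).

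For the comparisons between brain groups, the FPKM ratio was taken on the log2 scale, its SE was derived from the authors' intervals, and p-values of a two-sided Wald test were adjusted by the Benjamini-Hochberg method over all entries tested. An entry needed some signal in each group compared and a level of 1 FPKM or more in any of them, and genes are called differentially expressed at an FDR of 10%. The test is coarse: at the median SE of the members, a log2 difference of 1.56 to 3.14, depending on the comparison, would have been needed to pass. The calls rest on the normal reference distribution, since with a t distribution 0 of the 33 calls given below for Irs1 and the genes of the context lists were kept. The 2 genotype comparisons and the 2 diet comparisons share groups (WTAL, WTDR, KOAL or KODR), so their values are not independent of each other. The plot of log2 differences shows the 4 pairwise comparisons, with gaps for members that were not tested.

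**Figure D4:**
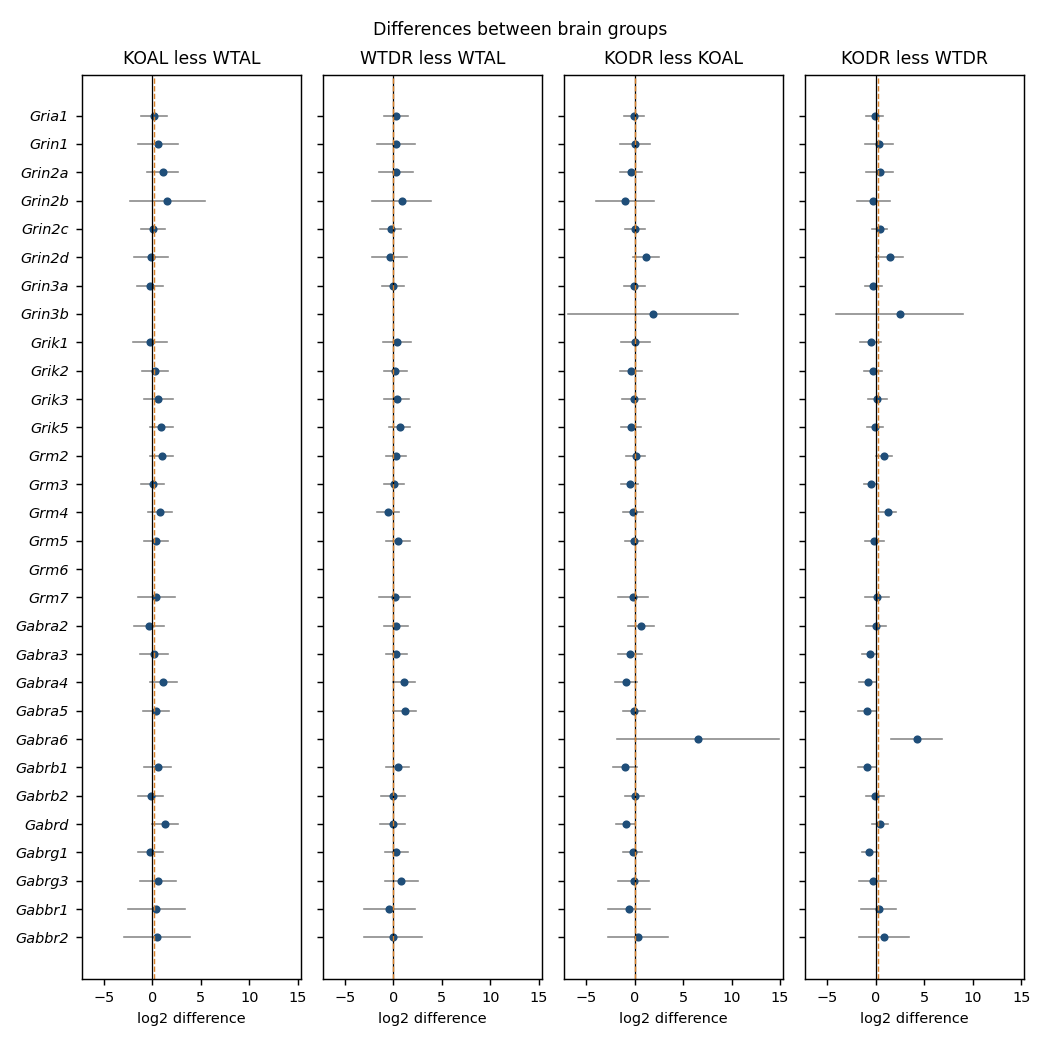
Log2 differences (points) of 30 receptor subunits in brain with 95% intervals from the SE (lines) in 4 comparisons. The solid vertical line marks 0 and the dashed line the median of all entries tested, and Gabra6 in KODR mice compared with WTDR mice (4.20, interval 1.59 to 6.81) lies farthest from 0 among the intervals that exclude it.

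Genotype under AL feeding was addressed by comparing KOAL with WTAL mice. None of the 31 members tested was differentially expressed, where 0.203% of 15264 entries were, and 0 had an unadjusted p under 0.05 in the Wald test, where 1.81% of entries did. With a smaller SE, which divides each SD by the square root of the number of libraries, the count was also 0, where 1.41% of entries were called. Of the 31 members, 25 had a positive difference, and their median was 0.43 against 0.13 over all entries tested. Gabra6, Grin3b and Grm6 fell below the filter.

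The member nearest to the threshold was Gabrd, with a log2 difference of 1.32 (SE 0.70, 95% interval -0.06 to 2.69). Gabra4 at 1.15 (SE 0.70, interval -0.22 to 2.51) and Grm2 at 0.99 (SE 0.61, interval -0.21 to 2.18) came next, so the intervals of all 3 included 0. All 6 metabotropic glutamate receptors tested had a positive difference, between 0.03 (Grm3) and 0.99 (Grm2), although that of Grm3 is below the median of all entries. Abundant subunits of other classes gave 0.15 (SE 0.69) for Gria1, 0.58 (SE 1.06) for Grin1, 0.93 (SE 0.62) for Grik5, -0.17 (SE 0.67) for Gabrb2 and 0.43 (SE 1.49) for Gabbr1. For Gria1 and Gabrb2 the interval of the difference ran from -1.21 to 1.51 and from -1.47 to 1.14, so these intervals still hold differences of 1 log2 unit in either direction.

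Diet in wild-type mice was addressed by comparing WTDR with WTAL mice. None of 31 members was differentially expressed (0.224% of 15164 entries were), 0 had an unadjusted p under 0.05 (2.22% of entries did), and the smaller SE gave 0 (1.73% of entries). The 5 GABA-A alpha subunits tested all had a positive difference, with a median of 0.67, and so did the 4 kainate subunits, with a median of 0.36, while the median over all 31 members was 0.28 and over all entries -0.08.

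Gabra5 came nearest to the threshold, with a log2 difference of 1.14 (SE 0.59, 95% interval -0.02 to 2.31). Gabra4 followed at 1.10 (SE 0.59, interval -0.05 to 2.25) and Grik5 at 0.64 (SE 0.54), and these did not pass either. Grm4 was on the negative side, at -0.58 (SE 0.56). Gria1 (0.22, SE 0.63), Grin1 (0.29, SE 1.01), Gabrb2 (-0.06, SE 0.63) and Gabbr1 (-0.43, SE 1.35) differed by less than their SE.

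Diet in KO mice was addressed by comparing KODR with KOAL mice, where 33 members were tested. None was differentially expressed (0.365% of 15349 entries were) and 0 had an unadjusted p under 0.05 (2.51% of entries did). With the smaller SE, Gabrd (lower in KODR mice) and Grin2d (higher) passed, where 4.33% of entries did. Negative differences numbered 23, among them all 4 gamma and delta subunits, and the median of the members was -0.11 against 0.03 over all entries. The difference of Gabrd was -0.93 (SE 0.49, 95% interval -1.89 to 0.03), that of Grin2d was 1.20 (SE 0.68, interval -0.13 to 2.52) and that of Gabrb1 was -1.0 (SE 0.63, interval -2.23 to 0.23). Gabra6 was the 1 member whose FPKM intervals lay apart, as they did in 0.723% of entries, yet its log2 difference of 6.54 had an SE of 4.28, with a KOAL value close to 0. It was called there with a pseudocount of 0.1 or 1, which also lowers the SE of a value close to 0. Gabra6 met the filter through its KODR value alone, as Grin3b did.

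Genotype under DR was addressed by comparing KODR with WTDR mice, the pairwise comparison with the smallest median SE of the members (0.48). None of 33 members was differentially expressed at an FDR of 10%, where 1.16% of 15262 entries were, and 4 had an unadjusted p under 0.05, where 7.5% of entries did. The smaller SE called 10 members, 5 higher (among them Gabra6, Grin2d, Grm2 and Grm4) and 5 lower (Gabra4, Gabra5, Gabrb1, Gabrg1 and Grm3) in KODR mice, and 18.5% of all entries. Positive and negative differences were 15 and 18, with a median of -0.11 against 0.23 over all entries.

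Gabra6 came nearest to the threshold of any member in any comparison, with a log2 difference of 4.20 (SE 1.33, 95% interval 1.59 to 6.81). Its intervals in the 2 groups did not overlap, which held for 1.95% of entries. With a pseudocount of 0.1 or 1 on the log scale its difference was 3.42 or 1.56 and was called. A pseudocount also lowers the SE where a value is close to 0, so these calls add no support. Gabra6 met the filter through its KODR value alone and is not tested at a filter of 5 FPKM, so these values are a description. Grm4 followed with 1.23 (SE 0.43, interval 0.38 to 2.08) and Grin2d with 1.43 (SE 0.72, interval 0.01 to 2.84), whose intervals excluded 0 before adjustment but which did not pass after it. On the other side, Gabra4 was at -0.84 (SE 0.43), Gabra5 at -0.87 (SE 0.47) and Gabrb1 at -0.88 (SE 0.47). The GABA-A alpha class thus held Gabra6 at 4.20 beside a class median of -0.53.

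Whether the genotype difference depended on diet was addressed by the interaction, the difference between KODR and WTDR mice less that between KOAL and WTAL mice. None of 32 members passed the FDR (0.396% of 15655 entries did), 1 had an unadjusted p under 0.05 (3.53% of entries did), and the same member, Gabra4, was the only one called with the smaller SE (5.15% of entries). Its interaction was -1.99 (SE 0.82, 95% interval -3.60 to -0.38). Gabra4 was about as low in WTAL and KODR mice (8.17 and 9.75) as it was high in WTDR and KOAL mice (17.5 and 18.1). Gabrb1, its neighbour on chromosome 5, had an interaction of -1.42 (SE 0.86) and Gabra5 one of -1.24 (SE 0.83). The kainate subunits and the gamma and delta subunits were all negative, 4 of 4 in each, with medians of -0.52 and -0.77. Over the members the median was -0.45, over all entries 0.10. Gabra6 and Grm6, listed at 0 in WTAL mice, were not tested here or in the averages that follow.

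Averaged over diets, the leading members for genotype were Grm4 (1.02, SE 0.39, 95% interval 0.26 to 1.78), Grm2 (0.90, SE 0.37, interval 0.18 to 1.63) and Gabrd (0.88, SE 0.41, interval 0.07 to 1.68), all higher in KO mice. These were the 3 of 32 members with an unadjusted p under 0.05 (2.15% of entries), 0 passed the FDR (0.0703% of entries did), and the smaller SE called the same 3 (2.18% of entries). Averaged over genotypes, diet gave 0 members under the FDR (0.0319% of entries), 0 at an unadjusted p under 0.05 (0.773% of entries) and 0 with the smaller SE (0.37% of entries). The 32 differences of diet ran from -0.49 to 0.52 on the log2 scale, the largest in size being those of Gabra5 (0.52, SE 0.41), Gabrd (-0.49, SE 0.41) and Gabra2 (0.44, SE 0.47).

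The labelled genotype was checked by Irs1 itself, whose brain FPKM was 2.47 in WTAL, 1.62 in WTDR, 3.49 in KOAL and 4.14 in KODR mice. It was higher in the groups labelled KO under both diets, by 0.50 (SE 0.66) under AL and by 1.35 (SE 0.40) under DR, which goes against the labels. The second passed the FDR of 10% but not one of 5%, nor the FDR of 10% after centring on the median of all entries. It also failed to pass with no filter on low FPKM, on the linear scale and with a t distribution. At a filter of 5 FPKM Irs1 was not tested. A value per gene does not tell whether the transcript was intact, and genotype differences here are those of the groups as labelled. Markers of the labelled tissue were abundant in all 4 groups, with a summed FPKM of 3260 to 4763 over 14 pan-neuronal genes.

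Markers of brain regions differed between the groups, and some members known for regional expression stood in a like order and others did not. In bulk RNA, fewer cells of a type and less RNA per cell cannot be told apart. Of the 11 cerebellar markers in the table, 5 were differentially expressed in KODR compared with WTDR mice (Car8, Cbln1, Cbln3, En2 and Pvalb, all higher) and 3 compared with KOAL mice (Car8, Cbln3 and En2, all higher). The summed FPKM of the list was 194.9, 145.5, 200.2 and 385.4 in WTAL, WTDR, KOAL and KODR mice, and no marker was at 0 in any group. Cbln3, a cerebellar granule cell gene, was at 0.464, 0.276, 0.553 and 20.6. It met the filter of 1 FPKM through its KODR value alone, so its calls and its likeness to Gabra6 are a description. Gabra6, which is known from the same cells, was likewise measured above 1 in KODR mice only, and in KODR compared with WTDR mice its difference of 4.20 stood beside a list median of 2.25. Other members known from these cells did not keep that order in both comparisons. Grm4 was at 1.23 and Grin2c at 0.39 against WTDR mice, but at -0.15 and 0.04 against KOAL mice, where the list median was 1.54. The part of regional composition in these results was not tested.

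The striatal list (9 genes) summed to 403.6 in WTAL, 618.0 in WTDR, 674.1 in KOAL and 474.2 in KODR mice, the same order of groups as Gabra4 from lowest to highest. Its interaction was negative for 9 of 9 genes, with a median of -1.60. No gene of this list passed the FDR in any comparison, 5 of 63 pairs of a gene and a comparison had an unadjusted p under 0.05 in the Wald test, and the smaller SE called 9. The cortical and hippocampal list (12 genes) summed to 565.4, 752.3, 1201 and 709.5, highest in KOAL mice as Gabrd and the striatal list were. Gabra5, known from the hippocampus, was instead highest in WTDR mice (15.3). Of the genes of this list 1, Fezf2, passed the FDR in the interaction (-3.20, SE 0.85). In KODR compared with KOAL mice Gabrd differed by -0.93, beside medians of -0.46 for this list and 1.54 for the cerebellar list. The list of thalamus and midbrain (10 genes) summed to 156.5, 57.8, 79.2 and 142.6. Gabra4, known from thalamus as well as forebrain, went the other way. The interaction of this list was positive for 10 of 10 genes, with a median of 2.18, against -1.99 for Gabra4. Its dopamine neuron genes were differentially expressed, Slc6a3 in all 4 pairwise comparisons and Th in both that involve WTDR mice. Grin2d shared with this list a lower value in WTDR than in WTAL and KODR mice. The values of these lists and of the members that lead the comparisons are set side by side in the panels of regional markers and subunits.

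**Figure D5:**
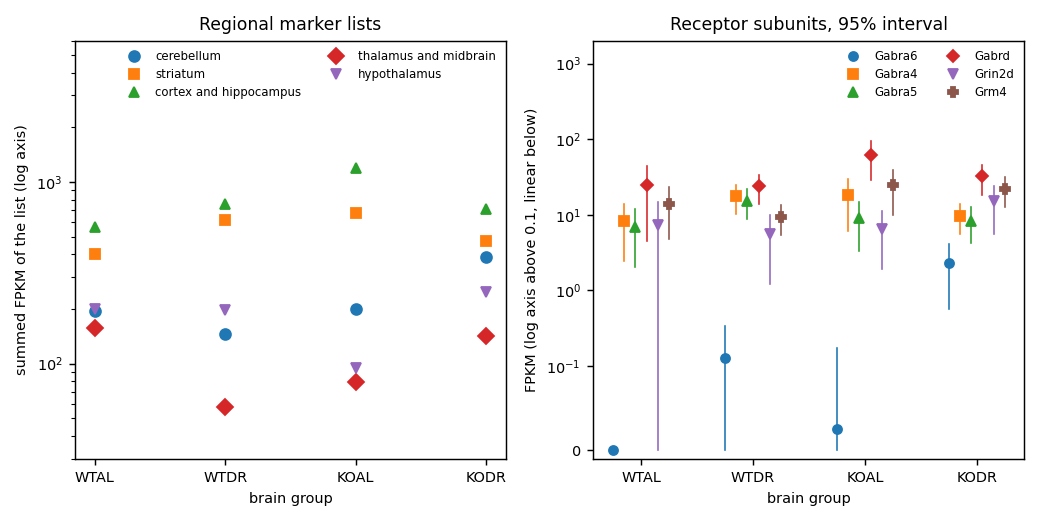
Left, summed brain FPKM of 5 regional marker lists (log axis, without error bars). Right, FPKM of 6 receptor subunits with the authors' 95% intervals (log axis above 0.1), in WTAL, WTDR, KOAL and KODR mice. The cerebellar list reaches 385.4 and Gabra6 2.32 in KODR mice, and the striatal list and Gabra4 are higher in WTDR and KOAL than in WTAL and KODR mice.

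Other lists of brain cells and regions also differed. In KODR compared with WTDR mice, 1 gene passed in each of the pan-neuronal (Nefh), astrocyte (Fgfr3), oligodendrocyte (Mag) and choroid plexus (Kl) lists, all higher. In the red blood cell list 3 passed (Hba-a1, Hba-a2 and Hbb-bt, all higher), and the list summed to 1032, 971, 9908 and 3476 in WTAL, WTDR, KOAL and KODR mice. The oligodendrocyte list summed to 2649 in WTDR mice and to between 5980 and 6048 in the others. In the hypothalamic list Avp and Oxt were higher in KODR than in KOAL mice, and its sum was lowest in KOAL mice (95.1 against 196.6 to 247.8). The choroid plexus list summed to 334.7 in KODR and 68.9 in WTDR mice. The microglia, endothelial and olfactory bulb lists had 0 calls over the 7 comparisons. Over all pairs of a gene and a comparison, the Wald test gave an unadjusted p under 0.05 for 0 of 63, 2 of 42 and 9 of 20 in these lists, and the smaller SE called 2, 1 and 9. Of all cell and region markers in the table, only Eomes of the olfactory bulb list was at 0 in any brain group (WTAL). The part of these cells in the receptor values was not tested.

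The genes that make, clear and anchor the transmitters and their receptors gave no calls either. None of the 11 genes of glutamate synthesis and transport, 9 of GABA synthesis and transport, 31 auxiliary and scaffold genes of glutamate receptors and 13 scaffold and trafficking genes of GABA receptors passed the FDR in any of the 7 comparisons. Over all pairs of a gene and a comparison, an unadjusted p under 0.05 was seen for 1 of 77, 2 of 62, 10 of 210 and 1 of 91 in these lists, and the smaller SE called 4, 1, 10 and 5. The glutamate scaffold list had 26 of 30 genes positive in KOAL compared with WTAL mice (median 0.45), close to the median of the receptor subunits. Its leading gene was Homer1, which links metabotropic receptors to the postsynaptic density, with a difference of 1.69 (SE 0.63) in WTDR compared with WTAL mice that did not pass. Slc17a6, the vesicular glutamate transporter typical of thalamus and brainstem and also a gene of the thalamus and midbrain list, had an interaction of 1.62 (SE 0.81), and Slc6a13, a GABA transporter, a difference of -1.88 (SE 0.90) between KODR and KOAL mice, and neither passed.

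One related receptor did pass. Glra1, the alpha subunit of the glycine receptor of spinal cord and brainstem, was the single gene called among the other ionotropic GABA, glycine and delta receptor subunits. Its FPKM was 9.19 in WTAL, 1.07 in WTDR, 2.38 in KOAL and 8.59 in KODR mice. It was higher in KODR than in WTDR mice (log2 difference 3.01, SE 0.86) and its interaction was 4.96 (SE 1.31), both past the FDR. The order of its values, high in WTAL and KODR mice, was that of the thalamus and midbrain list.

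On chromosome 5 of GRCm38, from 70751047 to 72149037, the GABA-A genes Gabrg1, Gabra2 and Gabra4 (minus strand) and Gabrb1 (plus strand) lie in a cluster, with mean brain FPKM from 4.18 to 13.4. The annotated 5' ends of Gabra4 and Gabrb1 overlap from 71658113 to 71658308, so reads of this short shared stretch may not be told apart. The members are long genes, with a longest annotated transcript of 2467 to 24060 bases and a median of 4741. Over entries in the class of longest transcripts the median log2 difference was 0.11 in KOAL compared with WTAL mice and 0.27 in KODR compared with WTDR mice, where the 15 members of that class had medians of 0.47 and -0.13.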

How the data were processed

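RNA of brain, liver, skeletal muscle and WAT was selected for poly(A), made into libraries and sequenced on an Ion Proton instrument. Per the labels and the methods of the study, the authors trimmed reads with cutadapt 1.5 and sickle, aligned them to GRCm38 with BBmap and ran Cuffdiff 2.2.1 with correction for multiply mapped reads and geometric normalization. The deposited table holds FPKM values per gene and group, with 95% intervals and a status, for 42349 entries, of which 873 join several genes. Neither counts nor single libraries entered, so depth is unknown and precision is given by the authors' intervals. Reads shared by related subunits were divided by the authors' software.

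Samples were grouped by their labels. The SD was taken as the distance from the FPKM to its upper bound over 2. Log2 ratios were tested with a two-sided Wald test (delta method, normal reference) with Benjamini-Hochberg adjustment over all entries tested, at an FDR of 10%, using statsmodels 0.14.6, scipy 1.17.1, pandas 2.3.3 and numpy 2.4.6 under Python 3.11.15. The code was tested on simulated data. Entries needed the status OK, an FPKM above 0 in every group used and of at least 1 in one. The alternatives were an FDR of 5%, the smaller SE, a t distribution, a linear scale, pseudocounts of 0.1 and 1, no filter, an FPKM of at least 5, centring, and leaving out joined entries. The members, the 18 context lists (synaptic pathways, brain cells and brain regions) and the tests were chosen with earlier results of these data known. Full values were given for any member called, the 3 members with the smallest p in each comparison and the most abundant member of each class, and up to 3 genes could be named from a list. The values of 4 members are not reported here, though they are in the counts, medians and sums. Grin2d, Gabra2 and others named beside them, and the genes named from the lists, were added for their role or values. p-values rest on Cuffdiff's estimate of spread, which was not checked against separate mice. Promoters are from RefSeq (GRCm38.p6) and gene positions from GENCODE (GRCm38).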

Additional observations from a re-analysis of the deposited data

How the results depend on the processing

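No paired analysis was possible because the table holds 1 pooled value per group, and for the same reason no library could be left out. The smaller SE raised the count of members called from 0 to 2 between KODR and KOAL mice, to 10 between KODR and WTDR mice, to 1 in the interaction and to 3 for genotype averaged over diets. Over all entries it called 215 in place of 31 between KOAL and WTAL mice, 262 in place of 34 between WTDR and WTAL mice, 664 in place of 56 between KODR and KOAL mice, 2826 in place of 177 between KODR and WTDR mice, 807 in place of 62 in the interaction, 58 in place of 5 for diet and 342 in place of 11 for genotype. The t distribution lowered the same counts to 0, 0, 7, 5, 2, 0 and 0. In KODR compared with WTDR mice, an FDR of 5% gave 110, the linear scale 73 and centring 106 over all entries. In the other comparisons, counts over all entries that moved by over 1.5 times came from the linear scale (20 in KOAL compared with WTAL mice), an FDR of 5% (41 in the interaction) and a pseudocount of 1 (47 in KOAL compared with WTAL mice, 11 for diet and 20 for genotype). Of the 33 calls given for Irs1 and the context lists, 22 were kept at an FDR of 5%, 26 with centring, 30 with no filter, 29 at an FPKM of at least 5, 6 of 25 on the linear scale and 0 with the t distribution, and all 33 under the other alternatives. Pseudocounts of 0.1 and 1 each called 1 member, Gabra6, in KODR compared with KOAL and with WTDR mice. They also lower the SE of its values close to 0. An FDR of 5%, the t distribution, the linear scale, no filter, an FPKM of at least 5, centring and leaving out joined entries called 0 members in every comparison in which they were run. Requiring intervals apart lowered the count of members higher in brain from 31 to 20. The leading members of each comparison kept their direction. Only the pseudocounts and centring alter a log2 difference, and by too little to turn these, so it is no check of the result. Centring on the median of all entries, which moves a difference by at most 0.23, turned the sign of 19 of 224 member differences, the largest of them 0.17 in size. With a single value per group, small log2 differences could not be called for a typical member. The limit ran from about 1.56 in KODR compared with WTDR mice to 3.14 in the interaction.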
